A study of Mus musculus with 62 samples.

Results

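Transcripts of 6 gene families that attach ubiquitin to proteins were followed through RNA-sequencing (RNA-seq) and ribosome profiling (Ribo-seq) of mouse heart and of C2C12 myoblasts. The genes were those whose symbol starts with Ube2, Rnf, Trim, Fbxo, Fbxl or Fbxw, without Rnf14, and each gene was represented by its transcript with the highest mean count. There were 132 such genes among the 10476 genes of the count table: 21 Ube2, 42 Rnf, 38 Trim, 18 Fbxo, 7 Fbxl and 6 Fbxw genes. The table held transcripts of genes on the plus strand only, so relatives on the minus strand were not analysed here, and GENCODE M21 lists 270 protein-coding genes with these prefixes in all. Of the 132 genes, 73 passed the count filter in all 15 comparisons, 25 in some, and 34 in none. The 34 untested genes had at most 29 RNA-seq and 12 Ribo-seq counts in any library.

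Ubiquitin is activated by an E1 enzyme, passed to an E2 conjugase and transferred to a substrate with the help of an E3 ligase. Ube2 genes encode conjugases, a few of which carry the related proteins SUMO or NEDD8. Many Rnf and Trim genes encode RING-type ligases, whereas F-box proteins (Fbxo, Fbxl and Fbxw) are the substrate adaptors of SCF cullin ligases. In striated muscle, Trim63, Trim55 and Trim54 encode the MuRF1, MuRF2 and MuRF3 proteins of the sarcomere, and Trim72 encodes MG53, which takes part in membrane repair.

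Hearts came from 10-week-old male C57BL/6J mice, 4 wild-type (WT) and 4 homozygous for a CRISPR-Cas9 deletion of Rpl3l exon 2 (Rpl3l KO), a gene for a ribosomal protein found in heart and skeletal muscle. The deletion was not limited to heart muscle, and heart tissue was lysed as a whole, without separating its cell types. C2C12 cells, a line of mouse myoblasts, had been infected with a retrovirus for RPL3 (RPL3 OE), for RPL3L (RPL3L OE) or with the empty vector (control) and selected with puromycin, so that the control cells also carried the vector. There were 3 RNA-seq and 3 Ribo-seq libraries of each C2C12 group and 4 of each assay for either heart genotype, and the libraries of the 2 assays share only a replicate number. Nothing in the labels says that the 3 C2C12 libraries of a group came from separate infections, so p-values there measure the spread between these samples, which may be technical.

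Library totals ranged from 3594696 to 29746110 counts in RNA-seq and from 1606700 to 6093268 in Ribo-seq. Levels are given as CPM, counts scaled to a common library size with the trimmed mean of M-values (TMM). Rpl3l mRNA was at 490 to 717 CPM in WT hearts and at 32.3 to 54.8 CPM in Rpl3l KO hearts, and rose from 0.135 to 0.445 CPM in control cells to 1535 to 1571 CPM in RPL3L OE cells. Rpl3 lies on the minus strand, so RPL3 OE was not checked in this way. Summed cardiomyocyte markers were at 53607 to 72018 CPM in WT heart RNA-seq and at 174 to 184 CPM in control cells, where Pln, Myl3, Nppa and Mybpc3 were at 0. Heart libraries differed in markers of other tissues: 7 of 10 airway markers were in the table, and their summed RNA-seq level was 1.52, 620, 5.62 and 161 CPM in WT hearts 1 to 4 and 1461, 1.11, 2041 and 1.08 CPM in KO hearts 1 to 4. In Ribo-seq the sums were 6.54, 1277, 23.1 and 366 CPM in WT and 2850, 3906, 0.750 and 8.75 CPM in KO hearts. High libraries were thus numbers 1 and 3 in KO RNA-seq and numbers 1 and 2 in KO Ribo-seq, so that numbers 2 and 3 may not denote the same KO heart in both assays. The labels were kept, and the main test of TE did not use the numbers. They entered the replicate block, the TE refits without 1 replicate, and the overlap of TE values when genes were named. Fat markers, of which 6 of 8 were in the table, summed to 138 to 646 CPM in WT and 80.5 to 1315 CPM in KO RNA-seq, and to 237 to 761 and 98.2 to 1738 CPM in Ribo-seq. Heart results are also given from the libraries with airway markers under 100 CPM, and the part of airway and fat tissue in them was not tested.

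The 250 bases before the RefSeq transcription start (GRCm38.p6, plus strand) are shown for 3 genes whose levels lay far apart between heart and myoblasts, 2 muscle ligases and 1 mitotic conjugase. Capitals mark E-boxes (CANNTG), CCAAT boxes (CCAAT or, on the other strand, ATTGG) and the cell cycle element CHR (TTTGAA or TTCGAA, on either strand). The regions are chr4:134314870-134315119 for Trim63, chr5:31116362-31116611 for Trim54 and chr2:164769679-164769928 for Ube2c.
Trim63: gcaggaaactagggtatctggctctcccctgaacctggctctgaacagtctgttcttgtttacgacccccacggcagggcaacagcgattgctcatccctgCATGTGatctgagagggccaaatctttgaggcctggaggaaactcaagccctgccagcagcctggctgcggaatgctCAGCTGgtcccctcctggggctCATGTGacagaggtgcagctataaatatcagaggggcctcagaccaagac
Trim54: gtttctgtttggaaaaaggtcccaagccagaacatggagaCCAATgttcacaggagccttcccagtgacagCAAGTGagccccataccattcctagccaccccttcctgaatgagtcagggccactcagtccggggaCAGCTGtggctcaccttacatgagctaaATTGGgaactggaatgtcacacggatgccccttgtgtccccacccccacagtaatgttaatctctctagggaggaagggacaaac
Ube2c: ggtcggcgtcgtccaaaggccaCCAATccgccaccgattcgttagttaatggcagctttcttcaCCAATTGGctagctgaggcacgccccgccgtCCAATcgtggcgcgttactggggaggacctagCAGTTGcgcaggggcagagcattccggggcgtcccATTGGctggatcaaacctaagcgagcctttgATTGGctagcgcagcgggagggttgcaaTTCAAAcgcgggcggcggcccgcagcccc
The Trim63 window held 3 E-boxes, at 149, 72 and 50 bases before the start, and no CCAAT box. The Trim54 window held 2 E-boxes and 2 CCAAT boxes. The Ube2c window held 6 CCAAT boxes, 2 E-boxes and 1 CHR, at 29 bases, and 1 of its E-boxes overlaps 2 of its CCAAT boxes. Of all 32851 promoters of the same length, 66.2% held an E-box, 33.8% a CCAAT box and 16% the TTTGAA form of the CHR. Among the 103 member genes with a RefSeq promoter, the shares were 67%, 33% and 20.4%. The RefSeq start lies 100 bases before that of the counted transcript for Trim54 and 31 bases inside it for Ube2c.

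Conjugases and muscle TRIM ligases were the most abundant members in heart. Per kilobase of coding sequence, Trim54 mRNA was at 479 ± 34.2 CPM (SD, n = 4) and Ube2d3, a broadly used conjugase, at 470 ± 23.1 CPM in WT hearts, and the ranges of these 2 genes overlapped. Trim72 followed at 338 ± 14.6 CPM per kilobase, then Trim63 at 294 ± 7.03 and Ube2r2 at 280 ± 17.0, the last 2 with overlapping ranges. In control C2C12 the order on the same scale was Ube2d3 at 431 ± 13.5 (n = 3), Ube2n, a maker of lysine-63 chains, at 349 ± 10.9, and Ube2c, the conjugase of the anaphase-promoting complex, at 306 ± 11.3. Ube2k and Ube2d2a followed at 160.4 ± 5.13 and 160.4 ± 7.42, with overlapping ranges, and Ube2d2a shares reads with its near-copy Ube2d2b. The Ube2 genes held 42.1% ± 0.973 of the members' summed RNA-seq level per kilobase in WT heart and 62.9% ± 0.552 in control cells. The Trim genes held 32.5% ± 0.686 in heart and 11% ± 0.179 in control cells. Trim63, Trim54, Trim55 and Trim72 alone accounted for 26.9% ± 0.577 in heart and 0.252% ± 0.00812 in control cells.

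**Figure D1:**
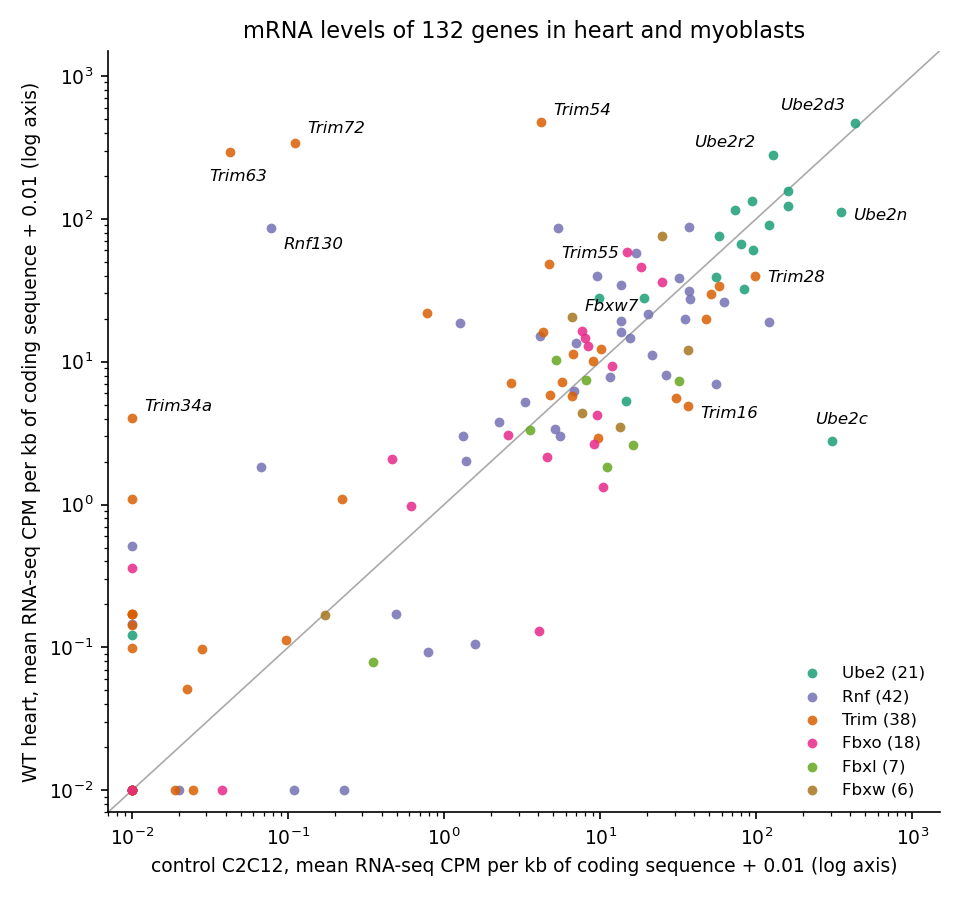
Mean RNA-seq level of each of the 132 genes in WT heart (y axis) against control C2C12 (x axis), in CPM per kilobase of coding sequence with 0.01 added, on log axes; colours give the family and the line marks equal levels. Trim63, Trim72, Trim54 and Rnf130 lie far above the line and Ube2c far below it, while Ube2d3 lies near it.

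Heart and myoblasts differed in most of the tested members, as they did in most genes. In RNA-seq, 76 of 94 members (80.9%) passed the test, 41 higher and 35 lower in WT heart than in control C2C12, against 82.1% of all 6369 genes tested, 41.2% higher and 40.9% lower (edgeR quasi-likelihood test, Benjamini-Hochberg adjusted p under 0.05 over all transcripts). In Ribo-seq, 71 of 88 (80.7%) passed, 38 higher and 33 lower, against 84.2% of genes, 40.4% higher and 43.7% lower. Which direction prevailed depended on the scaling: with library totals in place of TMM the median of all genes shifted by -0.76 on the log2 scale in RNA-seq and by -0.40 in Ribo-seq, and the members split into 23 higher and 52 lower in RNA-seq and 28 and 43 in Ribo-seq. The source of the RNA and everything that differs with it, such as culture and lysis, cannot be told apart, and in whole tissue fewer cells of a type cannot be told apart from less RNA per cell.

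Among the muscle TRIM ligases, Trim63 and Trim72 differed most between heart and myoblasts. Trim63 mRNA was at 312, 323, 312 and 305 CPM in the 4 WT hearts, while the control cells had at most 1 count in a library. Taking 3 counts per library as the floor, it was at least 2382-fold higher in heart. Trim63 footprints were at 410 to 439 CPM in WT hearts and at 0.274 to 1.10 CPM in control cells, a log2 difference of 9.39 (SE 0.17, edgeR adjusted p = 4.07e-17).
Trim72 mRNA was at 502, 500, 460 and 472 CPM in WT hearts and at 0.0495, 0.219 and 0.162 CPM in control cells. Its footprints were at 730 to 844 CPM in heart, against 2 to 3 counts in each control library, at least 1062-fold higher by the same floor. Both genes were thus near the limit of detection in myoblasts in both assays. They passed the count filter only through the hearts, so only a higher level in heart could be tested.
Trim54 was detected on both sides, although its counts in C2C12 were low and an antisense gene overlaps it. Its mRNA was at 549, 511, 480 and 563 CPM in WT hearts and at 4.50, 4.38 and 4.79 CPM in control cells, a log2 difference of 6.86 (SE 0.13, adjusted p = 6.48e-14). Its footprints differed by less, 5.62 (SE 0.15).
Trim55 mRNA was at 85.4, 68.9, 90.7 and 69.7 CPM in heart and at 7.08, 7.78 and 8.10 CPM in control cells, a log2 difference of 3.37 (SE 0.14). Its footprints differed by 4.01 (SE 0.11) on the same scale. For neither Trim54 nor Trim55 did the groups overlap in either assay.
Of the 12 listed striated muscle ligases, 8 were in the table: these 4, Trim32, Trim24, Fbxo30 and Fbxo21. In RNA-seq 6 of the 8 were higher and 1 lower in heart, and in Ribo-seq 7 were higher and 0 lower. Trim63 and Trim72 are among them and could only come out higher, so these counts lean to heart by design. Over all genes, 41.2% were higher and 40.9% lower in RNA-seq, and 40.4% and 43.7% in Ribo-seq, with TMM. Trim32, mutated in a limb-girdle muscular dystrophy, passed the test in neither assay, with log2 differences of -0.17 (SE 0.18, adjusted p = 0.407) in RNA-seq and -0.09 (SE 0.11, adjusted p = 0.482) in Ribo-seq.

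Other TRIM and RNF genes differed in both directions. Rnf130, a membrane-anchored RING ligase also called goliath, was at 97.6, 116, 104 and 114 CPM in WT heart mRNA, and control libraries held at most 4 counts, a log2 difference of 10.08 (SE 0.25). Rnf130 passed the count filter only through the hearts, so only this direction could be tested. Trim7, a ligase that binds glycogenin, was at 27.3, 37.7, 40.8 and 28.3 CPM in heart and at 0.594, 1.37 and 1.57 CPM in control cells. The mRNA of both was thus high in every heart and low in myoblasts. Trim7 footprints averaged 39.5 CPM in WT hearts and 6.49 CPM in control cells. An antisense gene overlaps Trim7, and the strand setting of the counting was not given in the sources used here.
Trim34a, one of the interferon-induced TRIM genes, spread widely among WT hearts at 1.14, 12.6, 3.28 and 6.56 CPM and had 0 counts in every control library, at least 44.8-fold higher by the floor. Reads of Trim34a cannot be separated with certainty from those of its near-copy Trim34b. Of the 5 interferon-induced members tested in RNA-seq, 4 were higher in heart and 0 lower, beside 41.2% and 40.9% of all genes, a split that turns with the scaling as given above. Trim34a passed the count filter only through the hearts, so only a higher level in heart could be found for it.
In the other direction, Trim16 mRNA was at 11, 4.72, 8.90 and 7.99 CPM in heart and at 60.3, 60.9 and 61.7 CPM in control cells, a log2 difference of -2.90 (SE 0.17, adjusted p = 1.7e-09). Rnf4, a ligase that recognises SUMO chains, fell by 2.72 on the log2 scale (SE 0.14) and Rnf145, a ligase of the endoplasmic reticulum (ER), by 2.90 (SE 0.15). Trim28, a corepressor of transposable elements, fell by 1.29 in RNA-seq (SE 0.10) and by 2.01 in Ribo-seq (SE 0.07).
Rnf225 mRNA was at 1.37 to 1.73 CPM in control cells and above 0 in 1 of 4 WT hearts, which held 4 counts, so no fold is given.
The ER list split, with 2 of 7 members higher and 4 lower in RNA-seq, and 3 higher and 4 lower in Ribo-seq. The shares of all genes were 41.2% and 40.9% in RNA-seq, and 40.4% and 43.7% in Ribo-seq.

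Among conjugases, Ube2c differed most. Its mRNA was at 158, 170 and 165 CPM in control cells, and the WT hearts held 2 to 26 counts each, a log2 difference of -6.53 (SE 0.21, adjusted p = 4.94e-12). In Ribo-seq the difference was -6.97 (SE 0.16). Among the WT and KO hearts alone Ube2c footprints did not pass the count filter, so this test rested on the myoblast libraries. The groups lay far apart in both assays.
Ube2c belongs to the list of mitotic and replication genes, of which 3 were tested. All 3 of them (Ube2c, Ube2t and Trim37) were lower in heart in both assays, and Ube2t, the conjugase of the Fanconi anaemia pathway, differed by -1.33 (SE 0.24) in RNA-seq. Of all genes, 40.9% were lower in RNA-seq and 43.7% in Ribo-seq, with TMM.
The abundant conjugases changed less. Ube2n fell by 1.65 on the log2 scale in RNA-seq (SE 0.14), Ube2r2, the CDC34-like conjugase of SCF ligases, was higher in heart by 1.14 (SE 0.10), and Ube2d3 differed by 0.14 (SE 0.09, adjusted p = 0.168). Across the family 6 of 17 were higher and 8 lower in RNA-seq, beside 41.2% and 40.9% of all genes.

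The F-box adaptors also went both ways, with 7 of 14 Fbxo genes higher and 5 lower in heart mRNA, 1 of 6 Fbxl genes higher and 3 lower, and 2 of 5 Fbxw genes higher and 3 lower. Over all genes, 41.2% were higher and 40.9% lower in RNA-seq. Fbxw9 footprints fell by 2.83 on the log2 scale in heart (SE 0.27), from 15.6 to 21.5 CPM in control cells to 1.45 to 3.75 CPM. Fbxo48 mRNA reached at most 1 count in WT hearts against 30 to 74 in control cells, at least 2.55-fold lower by the floor. Fbxo17, an adaptor that binds glycoproteins, had 0 or 1 footprint counts in WT hearts and 24 to 35 in control cells, at least 5.13-fold lower. Fbxo48 mRNA and Fbxo17 footprints passed the count filter only through the myoblasts, so only a lower level in heart could be found. Fbxw9 footprints did not pass that filter among the WT and KO hearts alone.
Among pathway genes outside the families, cullins and SCF core genes were more often higher than lower in heart footprints, 6 against 2 of 8, and HECT and RBR ligases numbered 11 higher and 2 lower of 15, beside 40.4% higher and 43.7% lower over all genes. Deubiquitinases were nearly balanced, at 14 higher and 15 lower of 37. In RNA-seq the corresponding counts were 4 and 1 of 8, 8 and 7 of 18, and 14 and 17 of 39, and for ubiquitin and E1 genes 2 and 0 of 3 in each assay. These directions were counted with TMM only, and the split of all genes turns with library totals. The members' medians were 0.11 in RNA-seq and 0.14 in Ribo-seq, beside -0.02 and -0.07 over all genes.

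Translation efficiency (TE) was taken as the difference between footprint and mRNA changes, tested as the interaction of group and assay. Between WT heart and control C2C12, 43 of 87 members (49.4%) differed in TE, 17 higher and 26 lower in heart, against 48.4% of all genes, 20.2% higher and 28.2% lower. In the WT hearts with airway markers under 100 CPM, 33 members differed in TE, and 78 and 72 in RNA-seq and Ribo-seq. Without control replicate 1, 28 members differed in TE, 27 of them among the 43. With library totals the split was 33 higher and 9 lower, as the median TE of all genes shifted by 0.37.
Fbxw7, the adaptor that marks cyclin E, MYC and NOTCH for degradation, stood out. Its mRNA was at 39.9, 49.4, 45.2 and 40.0 CPM in WT hearts and at 13.5, 14.8 and 14 CPM in control cells. Its footprints were at 77.8, 83.4, 82.8 and 81.3 CPM in heart and at 2.23, 2.20 and 2.75 CPM in control cells. The groups were clearly apart in both assays, but the gap was far wider in footprints.
The TE difference was 3.41 on the log2 scale (SE 0.21, adjusted p = 3.64e-10). It rests on 8 to 11 footprint counts per control library. The control libraries alone averaged under the count minimum, so Fbxw7 footprints passed the filter only through the hearts. Only a higher footprint level in heart could thus be tested, and the TE test leans to heart by the same filter. For all 4 Fbxw7 transcripts of the table the counts were alike, with at most 11 footprint counts in a control library and at least 130 in every WT heart. Transcripts of a gene can share reads, so this likeness lends no separate support. Control mRNA counts of these transcripts were 210 to 517.
Higher TE in heart was also found for Trim23, an ARF-domain ligase, at 1.32 (SE 0.28, adjusted p = 0.000651), Fbxo30, a muscle-mass adaptor also called MUSA1, at 1.18 (SE 0.17), and Fbxw11, a beta-TrCP adaptor, at 0.95 (SE 0.19). Fbxo30 mRNA was at 21.6, 16.0, 24.1 and 21.1 CPM in heart, below the 25.6, 25.5 and 29.0 CPM of control cells. Its footprints, at 60.3 to 66.9 CPM in heart and 31.0 to 38.8 CPM in control cells, went the other way.
Rnf144b, an RBR-type ligase, passed more narrowly at 1.13 (SE 0.44, adjusted p = 0.0409). Lower TE in heart was found for Trim7 at -2.21 (SE 0.37), Fbxl8 at -1.56 (SE 0.39), Fbxw17 at -1.26 (SE 0.33) and Trim54 at -1.25 (SE 0.21). The value for Trim63, -3.44, rests on 0 or 1 mRNA counts in control libraries. HECT and RBR ligases outside the families numbered 12 higher and 0 lower of 15 in TE with TMM.

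**Figure D2:**
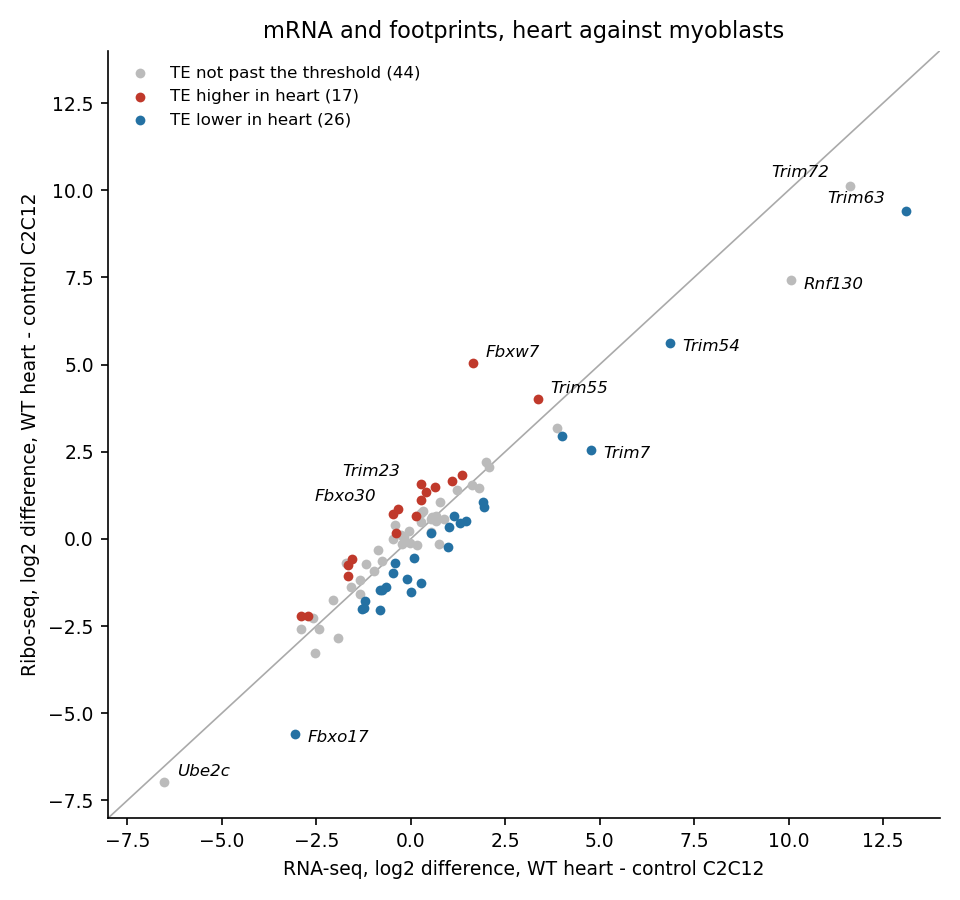
Log2 difference between WT heart and control C2C12 in Ribo-seq (y axis) against RNA-seq (x axis) for the 87 genes tested for TE; red points had higher and blue points lower TE in heart at adjusted p under 0.05, and the line marks equal differences. Fbxw7 lies well above the line and Trim7, Trim54 and Fbxo17 below it, and the points at far right rest on control libraries near 0 counts.

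Loss of Rpl3l left the mRNA of these families without a difference that passed the test. Of 94 members 0 passed, against 0.0159% of 6303 genes, and by edgeR 2 had an unadjusted p under 0.05, beside 2.32% of genes: Fbxo36 at 1.44 (SE 0.60, adjusted p = 0.999) and Trim37 at -0.50 (SE 0.19, adjusted p = 0.999). DESeq2 also called 0, and in the hearts with airway markers under 100 CPM edgeR called 0 of 92. For 74 of the 94 members the 95% interval of the difference lay within 1 log2 unit either way, and for 45 within 0.5. Trim63 mRNA was at 305 to 323 CPM in WT and at 262 to 382 CPM in KO hearts, with an interval of -0.29 to 0.22. The intervals were -0.22 to 0.31 for Trim54 and -0.25 to 0.30 for Trim55. The KO libraries were deeper, at 10930435 to 22425296 counts, than the WT libraries, at 3594696 to 14041366.

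In heart footprints 3 of 79 members (3.80%) passed, all TRIM genes and all higher in KO, against 0.688% of 5379 genes in either direction and 0.465% higher. One of the 3, Trim17, reached the count filter through its KO libraries, and no call outlasted the omission of every single heart.
Trim72 footprints were at 837, 844, 785 and 730 CPM in WT hearts and at 1039, 1050, 1100 and 983 CPM in Rpl3l KO hearts. Every KO library lay above every WT library. The log2 difference was 0.39 (SE 0.08, edgeR adjusted p = 0.0371), or 1.31-fold.
Its mRNA, at 460 to 502 CPM in WT and 465 to 589 CPM in KO hearts, overlapped between genotypes. Trim11, a ligase of the same chromosome 11 cluster as Trim17, had footprints of 26.5, 25.1, 21.1 and 22.5 CPM in WT and 35.2, 37.5, 43.5 and 34.3 CPM in KO hearts. Its groups did not overlap, and the difference was 0.65 (SE 0.14, adjusted p = 0.0493).
Trim17 footprints were at 1.82, 2.89, 2.01 and 3.75 CPM in WT and at 14.8, 6.68, 7.50 and 10.9 CPM in KO hearts, a log2 difference of 1.96 (SE 0.36, adjusted p = 0.024). Again no KO library fell among the WT libraries. These are 4 to 6 counts per WT library and 10 to 24 per KO library. The WT libraries alone averaged under the minimum of 10, so that Trim17 could be tested only in the direction it showed, and its call lends no support. Trim17 mRNA had at most 5 counts in any heart. The shorter Trim17 transcript had 0 footprint counts in all hearts, and a gene on the minus strand overlaps Trim17 exons, as an antisense gene does for Trim72.
Leaving out 1 heart left 0 or 1 of them. Trim11 and Trim72 lost their calls whichever of the 8 hearts was left out, and Trim17 lost its call whichever of the 4 WT hearts was left out, fell under the count filter without KO 1 or KO 4 and kept its call without KO 2 or KO 3. In the hearts with airway markers under 100 CPM, 2 of each genotype, Trim72 differed by 0.38 (adjusted p = 0.319) and Trim11 by 0.71 (adjusted p = 0.382), and Trim17 did not pass the count filter. The differences of Trim72 and Trim11 were thus about as large there, but not past the threshold.

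The 3 included, 18 of 79 members had an unadjusted p under 0.05 in heart footprints, 8 higher and 10 lower in KO, beside 16.9% of all genes. Trim54 footprints were at 424, 363, 460 and 341 CPM in WT and at 464, 455, 515 and 456 CPM in KO hearts, a difference of 0.26 (interval 0.04 to 0.47, adjusted p = 0.221). Trim23 was at 58.9, 70.9, 73.8 and 48.1 CPM in WT and at 43.9, 45.7, 42.7 and 43.0 CPM in KO hearts, a difference of -0.52 (adjusted p = 0.0946). Ube2d3 was at 254 to 290 CPM in WT and at 175 to 249 CPM in KO hearts, a difference of -0.33 (adjusted p = 0.163). None of these 3 passed the test, although for Trim23 and Ube2d3 the genotypes did not overlap.
Trim63 footprints, at 410 to 439 CPM in WT and 390 to 514 CPM in KO hearts, overlapped, with an interval of -0.12 to 0.29. The summed footprints of Trim63, Trim54, Trim55 and Trim72 per kilobase were at 1290 to 1479 CPM in WT and 1610 to 1808 CPM in KO hearts, and those of the Ube2 family at 2000 to 2234 and 1762 to 1958 CPM. These sums are given as a description. Before division by length, the 4 genes summed to 1769 CPM in WT and 2116 CPM in KO hearts on average. Trim72 alone averaged 799 and 1043 CPM, and Trim63, Trim54 and Trim55 each overlapped between genotypes. The sum of the 4 thus largely repeats Trim72.
TE differed for 0 of 77 members and 0 of all 5272 genes (0% called) by edgeR, with 2 members at an unadjusted p under 0.05, beside 6.39% of genes, Trim11 at 0.53 (adjusted p = 0.74) and Trim72 at 0.27 (adjusted p = 0.768). The interval lay within 1 log2 unit for 64 of the 77 members and within 0.5 for 11. The cullin, HECT and RBR, deubiquitinase, and ubiquitin and E1 lists held 0 called genes in the heart in all 3 measures.

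**Figure D3:**
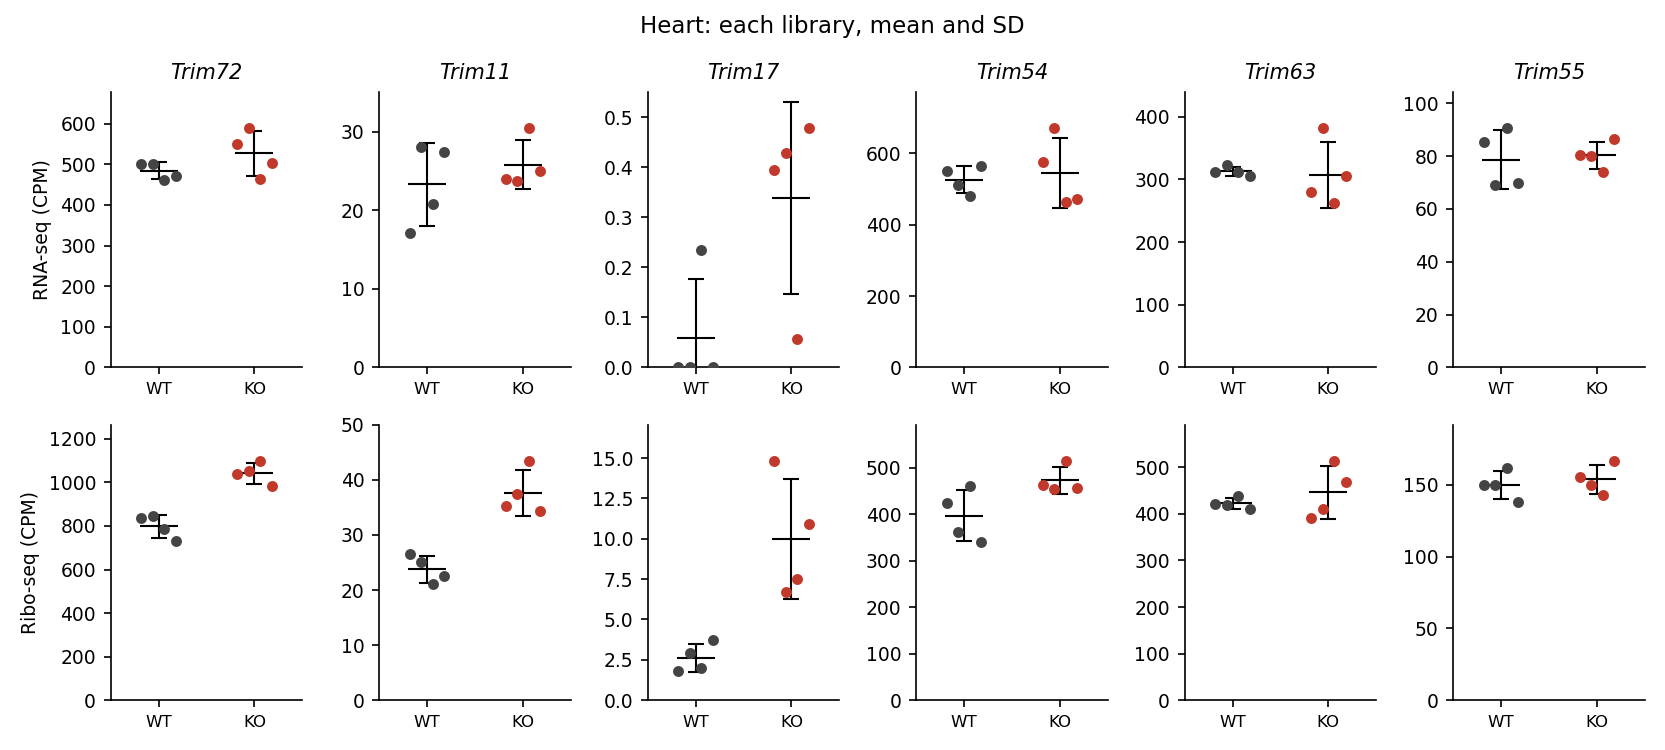
CPM of 6 TRIM genes in each WT (grey) and Rpl3l KO (red) heart library, RNA-seq above and Ribo-seq below, with the mean (line) and SD (bars); all y axes start at 0. In Ribo-seq every KO library lies above every WT library for Trim72, Trim11 and Trim17, while Trim63 and Trim55 overlap in both assays.

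In C2C12, overexpression of either ribosomal protein moved a minority of the members, mostly by little. Between RPL3L OE and control, 10 of 89 members (11.2%) passed in RNA-seq, 4 higher and 6 lower, against 9.69% of 5728 genes, 4.99% higher and 4.7% lower. Between RPL3 OE and control, 10 of 89 (11.2%) passed, 1 higher and 9 lower, against 17.2%, 8.92% higher and 8.33% lower. Between the 2 overexpressing lines, 20 of 89 (22.5%) passed, 13 higher and 7 lower in RPL3L OE, against 27.6%, 13.3% higher and 14.4% lower. In Ribo-seq, 6 of 87 members (6.90%) passed between RPL3L OE and control, 2 higher and 4 lower, against 12.2% of genes, 5.55% higher and 6.67% lower. Between RPL3 OE and control, 7 (8.05%) passed, 1 higher and 6 lower, against 11.7%, 5.07% higher and 6.6% lower. Between the overexpressing lines, 14 (16.1%) passed, 12 higher and 2 lower, against 19.5%, 9.6% higher and 9.94% lower. The comparisons of each line with control share their control samples, and each line also enters the comparison between the lines. Among all these calls, 1.62 was the greatest log2 size in RNA-seq and 1.24 in Ribo-seq.
These counts moved with the processing. Between RPL3L OE and control, DESeq2 called 4 members in RNA-seq and 2 in Ribo-seq. Leaving out 1 library gave 4 to 10 in RNA-seq, the fewest without RPL3L OE replicate 2 or 3, and 3 to 8 in Ribo-seq, the fewest without control replicate 1. In Ribo-seq the split turned to 5 higher and 3 lower with library totals.
Between RPL3 OE and control, DESeq2 called 6 and 2, and Ribo-seq gave 3 without control replicate 1. Between the overexpressing lines, DESeq2 called 6 in Ribo-seq, and 8 remained called without RPL3L OE replicate 3.

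The muscle ligases Trim54 and Trim55 gave the greatest differences, in different lines. Trim54 mRNA was at 4.50, 4.38 and 4.79 CPM in control cells, at 1.92, 3.13 and 3.66 CPM in RPL3 OE cells and at 1.32, 2.02 and 1.03 CPM in RPL3L OE cells. It fell by 1.62 on the log2 scale with RPL3L (SE 0.24, edgeR adjusted p = 7.58e-07) and by 0.57 with RPL3 (SE 0.20, adjusted p = 0.0453). RPL3L OE was below RPL3 OE by 1.05 (SE 0.28, adjusted p = 0.00295), although 1 library of each overlapped.
Trim54 footprints were at 7.09, 6.86 and 9.92 CPM in control, 6.88, 8.01 and 6.71 CPM in RPL3 OE and 4.64, 2.99 and 2.49 CPM in RPL3L OE cells. The 3 RPL3L OE libraries lay below all others. The difference from control was -1.24 (SE 0.25, adjusted p = 0.00074) and that from RPL3 OE was -1.13 (SE 0.24, adjusted p = 0.000532).
Trim55 showed another order. Its mRNA was at 7.08, 7.78 and 8.10 CPM in control, 4.35, 4.12 and 3.92 CPM in RPL3 OE and 5.67, 7.10 and 7.21 CPM in RPL3L OE cells, with a fall of 0.86 on the log2 scale with RPL3 (SE 0.16, adjusted p = 1.9e-05). Its footprints were at 8.72, 9.33 and 9.36 CPM in control, 3.53, 5.62 and 5.22 CPM in RPL3 OE and 10.1, 10.2 and 10.4 CPM in RPL3L OE cells, a fall of 0.91 with RPL3 (SE 0.21, adjusted p = 0.00313). RPL3L OE exceeded RPL3 OE by 0.70 in RNA-seq (SE 0.17, adjusted p = 0.0013) and by 1.08 in Ribo-seq (SE 0.19, adjusted p = 4.73e-05).
The RPL3 OE libraries of Trim55 were thus the lowest in both assays. Counts behind these levels were low, with 13 to 177 RNA-seq counts per C2C12 library for Trim54 and 43 to 299 for Trim55. An antisense gene also overlaps Trim54. Genes listed as myoblast markers moved as well: 4 of 8 were in the table, none at 0, and their summed mRNA was at 378 to 399 CPM in control, 245 to 267 CPM in RPL3 OE and 432 to 447 CPM in RPL3L OE cells. The sum is not particular to myoblasts. In WT hearts it was at 2142 to 2416 CPM, although Myod1, Myog and Cdh15 were at 0 there. Of the 4 listed genes, 0 rose and 3 fell with RPL3, and 2 rose and 0 fell with RPL3L. Over all genes in RNA-seq, 8.92% rose and 8.33% fell with RPL3, and 4.99% and 4.7% with RPL3L. Summed fibroblast marker mRNA was at 1405 to 1422 CPM in control, 2028 to 2036 CPM in RPL3 OE and 1474 to 1503 CPM in RPL3L OE cells. The part of either set of markers in the Trim54 and Trim55 results was not tested.

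**Figure D4:**
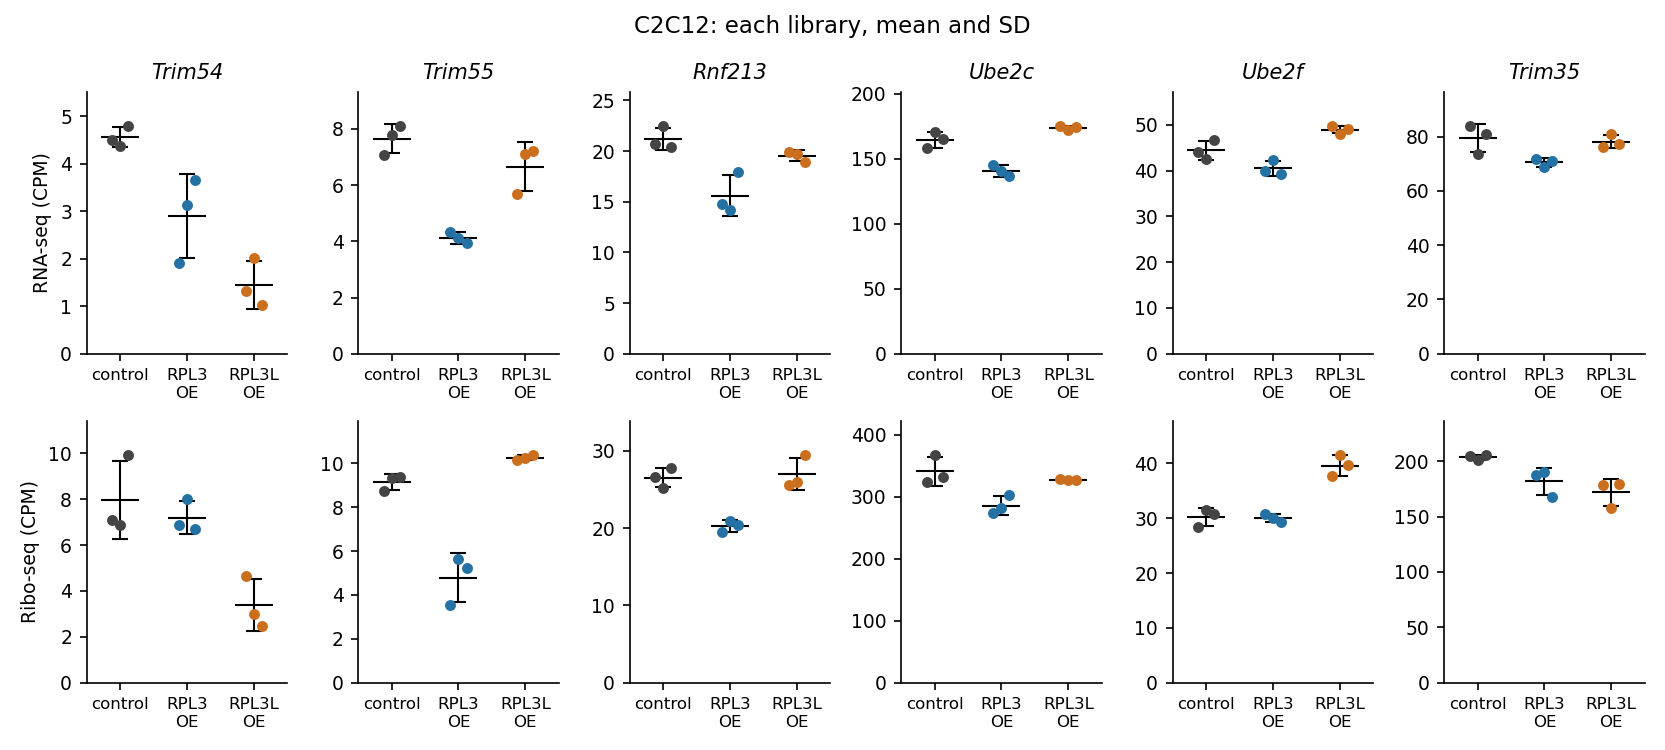
CPM of 6 genes in each C2C12 library of the control (grey), RPL3 OE (blue) and RPL3L OE (orange) groups, RNA-seq above and Ribo-seq below, with the mean (line) and SD (bars); all y axes start at 0. Trim54 has its lowest mean in RPL3L OE in both assays, Trim55, Rnf213 and Ube2c have theirs in RPL3 OE, and Ube2f footprints are highest in RPL3L OE.

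Among conjugases, Ube2c and Ube2f changed in both assays. Ube2c mRNA was at 158, 170 and 165 CPM in control, 145, 140 and 136 CPM in RPL3 OE and 175, 172 and 175 CPM in RPL3L OE cells, and the RPL3 OE libraries were below all others. RPL3L OE exceeded RPL3 OE by 0.30 (SE 0.04, adjusted p = 1.13e-08) in RNA-seq and by 0.20 (SE 0.05, adjusted p = 0.00399) in Ribo-seq. Against control, RPL3 OE was lower by 0.18 in mRNA (SE 0.04, adjusted p = 0.000229) and by 0.25 in footprints (SE 0.05, adjusted p = 0.000913).
Ube2f, a conjugase of NEDD8, had footprints of 28.4, 31.6 and 30.8 CPM in control, 30.8, 30.1 and 29.3 CPM in RPL3 OE and 37.7, 41.5 and 39.7 CPM in RPL3L OE cells. It was higher with RPL3L by 0.40 than in control (SE 0.09, adjusted p = 0.00206) and by 0.40 than with RPL3 (SE 0.08, adjusted p = 0.000429), and its mRNA was higher by 0.17 and 0.27. All 3 RPL3L OE libraries lay above the rest.
Ube2a, a conjugase of the RAD6 type, fell by 0.29 with RPL3 in mRNA (SE 0.06, adjusted p = 0.00055). Ube2d3 was lower in RPL3L OE than in RPL3 OE by 0.16 (SE 0.04, adjusted p = 0.000722), and Ube2q1 by 0.17 (SE 0.05, adjusted p = 0.0166). In footprints Ube2g2, an ER-associated conjugase, was lower with RPL3L than in control by 0.19 (SE 0.06, adjusted p = 0.046), and Ube2k was higher with RPL3 than in control by 0.19 (SE 0.06, adjusted p = 0.0323).

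Among RNF ligases, Rnf213, an interferon-induced giant ligase linked to moyamoya disease, was at 20.7, 22.5 and 20.4 CPM in control, 14.8, 14.1 and 17.9 CPM in RPL3 OE and 19.9, 19.7 and 18.9 CPM in RPL3L OE mRNA. It fell by 0.37 with RPL3 in mRNA (SE 0.09, adjusted p = 0.00136) and by 0.38 in footprints (SE 0.11, adjusted p = 0.0181), and RPL3L OE exceeded RPL3 OE by 0.42 in footprints (SE 0.10, adjusted p = 0.00211). The RPL3 OE libraries were again below all others.
Rnf128, a ligase known from T-cell anergy, was lower in mRNA in both lines, by 0.36 with RPL3L (SE 0.12, adjusted p = 0.0362) and by 0.41 with RPL3 (SE 0.12, adjusted p = 0.00864). Rnf170, an ER ligase of the inositol trisphosphate receptor, was at 9.40, 9.91 and 10.3 CPM in control and 7.37, 6.93 and 7.36 CPM in RPL3L OE cells, a fall of 0.42 (SE 0.14, adjusted p = 0.0401). Rnf115 fell by 0.29 with RPL3L (SE 0.07, adjusted p = 0.00274). Rnf19b, an RBR-type ligase despite its name, was higher with RPL3L by 0.17 than in control (SE 0.04, adjusted p = 0.00136) and by 0.27 than with RPL3 (SE 0.04, adjusted p = 5.54e-07).
Rnf103, an ER ligase, was at 28.3, 26.3 and 28.7 CPM in control, 22.2, 21.6 and 23.4 CPM in RPL3 OE and 28.6, 27.4 and 29.0 CPM in RPL3L OE mRNA, lower with RPL3 than in control by 0.26 (SE 0.07, adjusted p = 0.0066). Its RPL3 OE libraries lay below all others. Trim13, another ER ligase, had more footprints with RPL3L than with RPL3, by 0.48 (SE 0.17, adjusted p = 0.0349).
Of the F-box adaptors, 0 passed between RPL3L OE and control in RNA-seq, where by edgeR 16 of all 89 members had an unadjusted p under 0.05, beside 22.7% of genes. Fbxl19 and Fbxo34 were lower with RPL3, by 0.22 (SE 0.07, adjusted p = 0.0252) and 0.31 (SE 0.10, adjusted p = 0.0256). In Ribo-seq Fbxl16 was lower with RPL3 by 0.67 (SE 0.19, adjusted p = 0.0154), Fbxo30 higher with RPL3L by 0.31 (SE 0.09, adjusted p = 0.0162), and Fbxo17 higher with RPL3L than with RPL3 by 0.84 (SE 0.20, adjusted p = 0.00247).

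TE differed for 2 of 86 members (2.33%) between RPL3L OE and control, both lower, against 2.2% of 5405 genes, 1.04% higher and 1.17% lower. Trim35 mRNA levels overlapped between these groups, at 73.6 to 83.8 CPM in control and 76.0 to 81.0 CPM in RPL3L OE cells. Its footprints were at 204, 201 and 205 CPM in control and at 179, 157 and 179 CPM in RPL3L OE cells, and its TE fell by 0.26 (SE 0.07, adjusted p = 0.0392). A minus-strand gene overlaps Trim35.
Fbxo46 footprints were at 11.6, 6.86 and 3.86 CPM in control and at 4.30, 3.93 and 4.15 CPM in RPL3L OE cells, so that the groups overlapped and the control libraries spread widely. Its TE fell by 1.09 (SE 0.31, adjusted p = 0.048). Neither TE call was made without control replicate 2, RPL3L OE replicate 2 or RPL3L OE replicate 3, and with library totals 1 member was higher and 1 lower.
Between RPL3 OE and control 0 of 86 members passed, against 0.0925% of genes, and between RPL3L OE and RPL3 OE 0 of 86, against 0.278%. By edgeR 2 and 6 members had an unadjusted p under 0.05, beside 8.36% and 9.23% of genes. The TE interval lay within 1 log2 unit for 79 to 82 of the 86 members in the 3 comparisons and within 0.5 for 47 to 54.

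**Figure D5:**
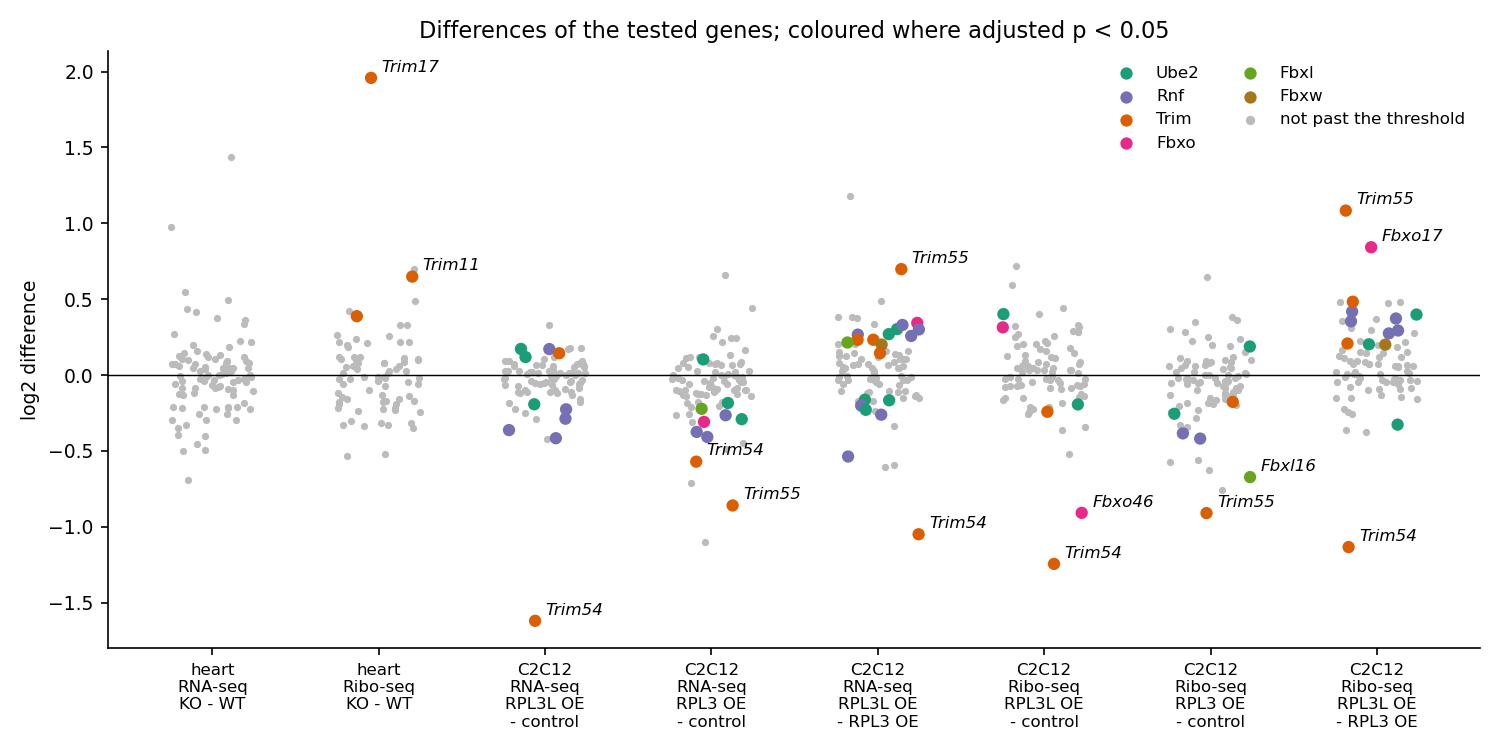
Log2 difference (y axis) of every tested gene of the families in 8 comparisons (x axis; points are spread sideways for legibility), coloured by family where adjusted p was under 0.05 and grey otherwise. Heart mRNA has no coloured point, heart footprints have 3, all TRIM genes, and in C2C12 the greatest coloured differences are those of Trim54 and Trim55.

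Outside the families, pathway lists in C2C12 are read beside the shares of all genes called, which were 9.69% with RPL3L, 17.2% with RPL3 and 27.6% between the lines in RNA-seq, and 12.2%, 11.7% and 19.5% in Ribo-seq. Of 38 deubiquitinases tested in RNA-seq, 2 rose and 3 fell with RPL3L, 0 rose and 4 fell with RPL3, and 6 were higher and 5 lower in RPL3L OE than in RPL3 OE. Of 17 HECT and RBR ligases, 0 passed with RPL3L by edgeR, 3 rose and 0 fell with RPL3, and 2 were higher and 3 lower in RPL3L OE than in RPL3 OE. Hectd2 rose by 1.14 on the log2 scale with RPL3 (adjusted p = 1.45e-05), while Uchl1, a neuronal type of deubiquitinase, fell by 0.74 (adjusted p = 1.61e-05). The 8 cullin and SCF core genes gave 0 calls with RPL3L, 1 higher and 3 lower with RPL3, and 0 higher and 1 lower between the lines, and Ubb, a polyubiquitin gene, was lower by 0.12 with RPL3 (adjusted p = 0.00192).
In Ribo-seq, of 36 deubiquitinases 4 rose and 0 fell with RPL3L, 2 rose and 1 fell with RPL3, and 4 were higher and 3 lower in RPL3L OE than in RPL3 OE. Of 17 HECT and RBR ligases, 2 rose and 1 fell with RPL3L, 2 rose and 0 fell with RPL3, and 1 was higher and 3 lower between the lines. The 8 cullin and SCF core genes gave 0 edgeR calls with either protein and 1 higher between the lines. Of the 2 ubiquitin and E1 genes, 1 fell with each protein. Of the roles within the families, the conjugases of SUMO and NEDD8 had 1 tested member, Ube2f, and the DNA damage list had 1 lower of 5 with each protein in RNA-seq, Rnf8 with RPL3L and Ube2a with RPL3.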

How the data were processed

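RNA-seq (poly(A) RNA) and Ribo-seq (RNase I footprints) of 4 WT and 4 Rpl3l KO hearts and of 3 control, 3 RPL3 OE and 3 RPL3L OE C2C12 samples were used. The authors deposited raw read counts per transcript. Per the labels and the study's methods, adapters were removed with cutadapt, reads were aligned by STAR with multiple mappings allowed in Ribo-seq (GRCm38.p6, mm10), Ribo-seq duplicates were collapsed with UMI-tools and reads were counted by featureCounts. Tool versions, and whether counting used strand, were not given in the sources used here. The table held 47754 lines, each of 23877 transcripts listed 2 times, of which 1 copy was kept. Of these transcripts 23662 matched GENCODE M21, all on the plus strand. The 16 Disome-seq columns were not used. Of 3883 transcript pairs with the same coding sequence and different exons, 3040 had identical counts in every library, so levels per kilobase used the coding length. The naming rule had said transcript length, and genes named under either length were kept.

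Transcripts averaging 10 or more counts over the libraries of a fit (of each assay for TE) were fitted with edgeR 4.0.16 (R 4.3.3, quasi-likelihood test, TMM, Benjamini-Hochberg adjustment over all transcripts, threshold 0.05). Heart groups, C2C12 groups, and WT heart with control C2C12 were fitted separately, and TE was tested as the group by assay interaction. The SE is the log2 difference divided by the square root of F. Intervals are at 95%. The floor of 3 counts per library covers counting error only, since the depth of 3594696 to 29746110 RNA-seq and 1606700 to 6093268 Ribo-seq counts sets what can be seen. Groups came from the labels. No pair of replicates was alike within sampling noise, the lowest chi-square per degree of freedom being 1.37. The fit was tested on simulated data, where for heart Ribo-seq 14.3% of the transcripts changed by 0.5 on the log2 scale and 82% of those changed by 1 were recovered among 12504 tested. For heart RNA-seq these shares were 10.4% and 55.1%, and for heart TE 2% and 46.9%, so most differences of 0.5 would be missed.

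The members, the lists and the tests were chosen with earlier results of these data known. Named were Rpl3l, the striated muscle ligases, in each comparison up to 5 called members with the largest increase and 5 with the largest decrease whose groups did not overlap, or the 2 with the smallest p where none passed, and the 5 most abundant members in heart and myoblasts. Members of other lists served as examples. Fbxo46 and Rnf145, and several values of named genes in comparisons where the rule did not reach them, were chosen after their values were seen. Alternatives were other filters, library totals, DESeq2 1.42.0, 1 transcript per gene, the transcript highest in Ribo-seq, the replicate block, other sets of groups in the fit and each replicate left out. Counts of near-identical copies are uncertain: Trim34a and Trim34b, Trim43a and Trim43c, Ube2d2a and Ube2d2b, Ube2dnl1 and Ube2dnl2, and Rnf113a1 and Rnf113a2. Minus-strand genes overlap exons of 8 of the 51 named members looked at: Fbxw9, Rnf213, Trim17, Trim34a, Trim35, Trim54, Trim7 and Trim72.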

Additional observations from a re-analysis of the deposited data

Results flagged for a closer look

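Of 118 sets of 4 heart libraries of 30 members, 11 held a library whose gap to the nearest other, as a share of the range, exceeded Dixon's 95% critical value for 4 samples. Chance flags about 1 in 20 sets of normally spread values, a rate that does not hold for sets at or near 0 counts. The causes of the flags were not tested.
In 6 of the 11 the share was 1 because a single library was above 0 and the others were at 0. These were the WT RNA-seq levels of Fbxo48 (0.234 CPM in WT 3), Rnf225 (0.380 CPM in WT 4) and Trim17 (0.234 CPM in WT 3), the KO RNA-seq level of Rnf225 (0.335 CPM in KO 3), and the WT Ribo-seq levels of Fbxo17 (0.482 CPM in WT 2) and Rnf225 (0.364 CPM in WT 1). For Fbxo48 in KO RNA-seq the share was 0.935, with 0.855 CPM in KO 2 and at most 0.0558 CPM in the others. All 7 rest on few counts.
The other 4 were at measurable levels. Rnf130 mRNA was lowest in KO 4, at 83.6 CPM against 108 to 111 in the other KO hearts (share 0.887). Trim16 mRNA was highest in KO 1, at 12.9 CPM against 8.21 to 8.54 (0.93), and Trim16 footprints were highest in KO 3, at 24 CPM against 16.0 to 17.0 (0.885). Trim54 footprints were highest in KO 3, at 515 CPM against 455 to 464 (0.857).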

How the results depend on the processing

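Among the 1348 refitted differences of single named genes, 1202 kept their direction and their side of the threshold, 146 kept their direction and lost the threshold, and 0 were reversed. The counts of called members that moved are given here, and the causes were not tested.
The 3 members called in heart footprints became 1 with a filter on a total of 10 counts, 0 with 1 transcript per gene, 0 in the hearts with airway markers under 100 CPM, a setting chosen after seeing the data, and 0 to 1 when 1 heart was left out. With DESeq2 the C2C12 counts fell from 10 to 4 (RNA-seq, RPL3L OE against control), 10 to 6 (RNA-seq, RPL3 OE against control), 6 to 2, 7 to 2 and 14 to 6 (Ribo-seq, RPL3L OE against control, RPL3 OE against control and RPL3L OE against RPL3 OE). The 2 TE calls of RPL3L OE against control became 1 with either other filter, DESeq2 or 1 transcript per gene. Leaving out 1 library gave 4 to 10, 7 to 12 and 16 to 21 in the 3 C2C12 RNA-seq comparisons, 3 to 8, 3 to 7 and 8 to 14 in Ribo-seq, and 0 to 2 TE calls. Between tissues it gave 68 to 75 in RNA-seq, 66 to 75 in Ribo-seq and 28 to 42 in TE, with 28 TE calls, 27 of them among the 43, when control replicate 1 was left out.
With library totals, C2C12 Ribo-seq members split 5 higher and 3 lower for RPL3L OE and 2 and 5 for RPL3 OE against control, and heart Ribo-seq gave 2 and 0.
The correlation of RNA-seq and Ribo-seq deviations of the same number was 0.19, 0.25, 0.24 and 0.07 in WT hearts, 0.46, -0.48, -0.54 and 0.38 in KO hearts and -0.14 to 0.09 in C2C12, so that not every pair exceeded 0.1 and the numbers were not taken as pairing. KO RNA-seq 2 correlated at 0.58 with Ribo-seq 3, and RNA-seq 3 at 0.54 with Ribo-seq 2. With a replicate block 2 members were called in heart footprints, 69, 68 and 39 between tissues, 8, 9 and 19 in C2C12 RNA-seq and 7, 7 and 14 in C2C12 Ribo-seq.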
